A study of Homo sapiens with 12 samples.

Results

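The 45 genes described here belong to the G1/S and DNA replication programme and were taken by symbol from gene-level read counts of 12 RNA-seq libraries of RKO cells, a human colon carcinoma line grown in culture. All 45 were found among the 26364 genes of the count files, and all 45 were among the 12858 genes that passed the filter on low counts. Polyadenylated RNA was sequenced with a strand-marking kit from 6 groups of 2 libraries. One group was wild type (WT), KO2 and KO5 were lines labelled as PRDM1 knockouts, and the last 3 overexpressed GFP, PRDM1-alpha or PRDM1-beta. All were kept in the same medium below confluence, with no other treatment in the labels. PRDM1, also called BLIMP1, is a zinc finger transcriptional repressor best known for driving plasma cell differentiation, and PRDM1-beta is a shorter form with an incomplete PR domain. The labels do not say how PRDM1 was disrupted, whether KO2 and KO5 are single clones, which promoter drives the overexpressed sequences, whether the overexpressing lines are pools, or whether replicate libraries are separate cultures. All p-values therefore measure the spread between these libraries only, which may be technical.

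Before a cell copies its DNA, the origin recognition complex with CDC6 and CDT1 loads the MCM2-7 helicase onto origins during G1. Cyclin E with its kinase then helps activate the helicase together with CDC45 and the GINS complex, and primase and the replicative polymerases copy the strands on the PCNA clamp. Most of these genes are classical targets of E2F factors, which are released from the retinoblastoma protein as cells pass from G1 into S phase, and their messages are therefore widely used as a proliferation signature of tumour cells.

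Library totals ran from 19058967 to 55961821 counts assigned to genes. PRDM1 itself had 11475 and 9681 counts in the alpha libraries and 22395 and 28423 in the beta libraries. It had 4 and 4 counts in WT, 2 and 6 in GFP, 0 and 1 in KO2, and 1 and 1 in KO5, so that the message was too rare in every unmodified library for the knockout to be checked at the RNA level. Of 11 colon epithelial markers, 3 were expressed (KRT8, KRT18 and CDX2), while EPCAM, CDX1 and CDH17 had 0 counts in every library, and KRT19, KRT20, VIL1 and CDH1 had at most 2. Of 14 fibroblast, leukocyte and endothelial markers, COL1A1, PDGFRB and CD68 passed the filter, and PTPRC, CD3E, PECAM1, CDH5 and DCN had at most 1 count in any library. CD68, the one leukocyte marker above the filter, moved with the groups: the summed leukocyte list, in read counts normalised to library size with TMM factors (CPM), was 26.8 and 29.6 with alpha, 24.3 and 26.6 with beta, 19.7 and 18.2 with GFP, 19.0 and 18.0 in wild type, and 11.3 to 12.9 in the knockout lines. Its part in the results was not tested.

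The letters that E2F factors are known to bind were looked for in RefSeq promoter windows (GRCh38.p14), because the list is a classical E2F target list and the members moved unevenly. The search covered the 250 bases before each annotated start, on both strands, for TTTCCCGC, TTTCGCGC, TTTGCCGC and TTTGGCGC. A window was found for 39 of the 45 members, and 16 of those 39 (41.0%) held at least 1 such match, against 3.4% of the 27305 genes with a window. The letters CCAAT, on either strand, were in 23 of the 39 (59.0%) and in 37.0% of all genes with a window. The letters AGNGAAAG, part of the sequence that PRDM1 is known to bind, were in 3 of the 39 (ORC6, CDC45 and LIG1; 7.69%) and in 7.99% of all genes with a window. A match describes letters only and is no evidence of binding in these cells.

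The 160 bases before the start of 8 members are shown as examples, and these are not the 8 largest changes. PRIM1, GINS1 and RFC4 fell more with beta than MCM6 did and are not shown. The choice of genes therefore allows no reading of letters against the direction of change. Each runs 5′ to 3′ on the strand of its gene, and capitals mark the E2F-type letters on either strand.
TYMS: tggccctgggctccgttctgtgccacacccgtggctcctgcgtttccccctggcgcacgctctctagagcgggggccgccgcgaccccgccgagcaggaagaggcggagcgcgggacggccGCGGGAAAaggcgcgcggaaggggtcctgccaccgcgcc
E2F2: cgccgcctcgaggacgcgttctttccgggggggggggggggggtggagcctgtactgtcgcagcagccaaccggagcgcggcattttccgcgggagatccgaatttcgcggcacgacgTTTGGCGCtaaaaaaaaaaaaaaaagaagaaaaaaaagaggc
PCNA: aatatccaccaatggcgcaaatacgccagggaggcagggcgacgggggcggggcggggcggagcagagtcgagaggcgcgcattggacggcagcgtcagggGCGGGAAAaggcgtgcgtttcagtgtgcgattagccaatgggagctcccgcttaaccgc
MCM6: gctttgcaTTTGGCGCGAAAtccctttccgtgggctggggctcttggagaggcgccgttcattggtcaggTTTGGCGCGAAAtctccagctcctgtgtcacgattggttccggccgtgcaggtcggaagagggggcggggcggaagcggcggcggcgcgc
RRM2: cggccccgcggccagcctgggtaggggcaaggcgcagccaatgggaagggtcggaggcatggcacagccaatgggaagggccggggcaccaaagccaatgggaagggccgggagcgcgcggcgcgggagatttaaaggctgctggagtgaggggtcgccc
CCNE1: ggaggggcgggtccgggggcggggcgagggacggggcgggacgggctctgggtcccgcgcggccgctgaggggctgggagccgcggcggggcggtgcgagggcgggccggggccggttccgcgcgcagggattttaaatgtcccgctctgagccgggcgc
CDT1: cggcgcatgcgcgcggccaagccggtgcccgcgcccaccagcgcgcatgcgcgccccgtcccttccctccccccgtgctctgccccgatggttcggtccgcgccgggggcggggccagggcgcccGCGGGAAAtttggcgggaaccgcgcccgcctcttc
E2F1: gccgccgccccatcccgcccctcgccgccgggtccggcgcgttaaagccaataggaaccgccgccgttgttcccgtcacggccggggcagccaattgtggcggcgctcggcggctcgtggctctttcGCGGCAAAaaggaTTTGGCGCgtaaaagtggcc
These stretches lie at chr18:657493-657652 (TYMS, plus strand), chr1:23531234-23531393 (E2F2, minus strand), chr20:5126623-5126782 (PCNA, minus strand) and chr2:135876444-135876603 (MCM6, minus strand). The others lie at chr2:10122579-10122738 (RRM2, plus strand), chr19:29811831-29811990 (CCNE1, plus strand), chr16:88803629-88803788 (CDT1, plus strand) and chr20:33686386-33686545 (E2F1, minus strand). All are upstream of the annotated start and outside the transcript. TYMS, E2F2, PCNA and MCM6 each hold at least 1 match and were lower with both PRDM1 forms. CDT1 also holds a match and was higher with both forms than with GFP as fitted. Its mean was 61.8 CPM with alpha and 61.9 with beta, not above the 63.8 of wild type. E2F1 holds 2 matches and was not called as fitted. RRM2 and CCNE1, which were higher, hold none within 250 bases, and neither does PRIM1, which was lower with both forms.

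Levels of 1 gene across libraries are given in CPM, and levels of different genes are compared per kilobase of transcript (RPKM). In wild-type cells the programme was strongly expressed: 44 of 45 members lay above the median of all tested genes (9.4 RPKM), and the median member reached 32.9 RPKM. PCNA, the sliding clamp, was highest at 260 ± 7.94 RPKM (SD, n = 2), followed by the helicase subunits MCM7 at 243 ± 6.14 and MCM4 at 164 ± 2.16. TYMS, which makes thymidylate, and RRM1, the large subunit of ribonucleotide reductase, came next at 130 ± 0.809 and 109 ± 0.543 RPKM. MCM3 and RRM2, the small reductase subunit, were at 98.4 ± 0.896 and 97.9 ± 0.327 RPKM and did not differ beyond their spread. At the other end, E2F2 was at 9.63 ± 0.0957 RPKM, and POLD3, an accessory subunit of polymerase delta, at 6.56 ± 0.181 was the one member below the median of tested genes. The MCM2-7 subunits form 1 ring, yet their messages ran from MCM5 at 44.5 ± 0.293 RPKM to MCM7.

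**Figure D1:**
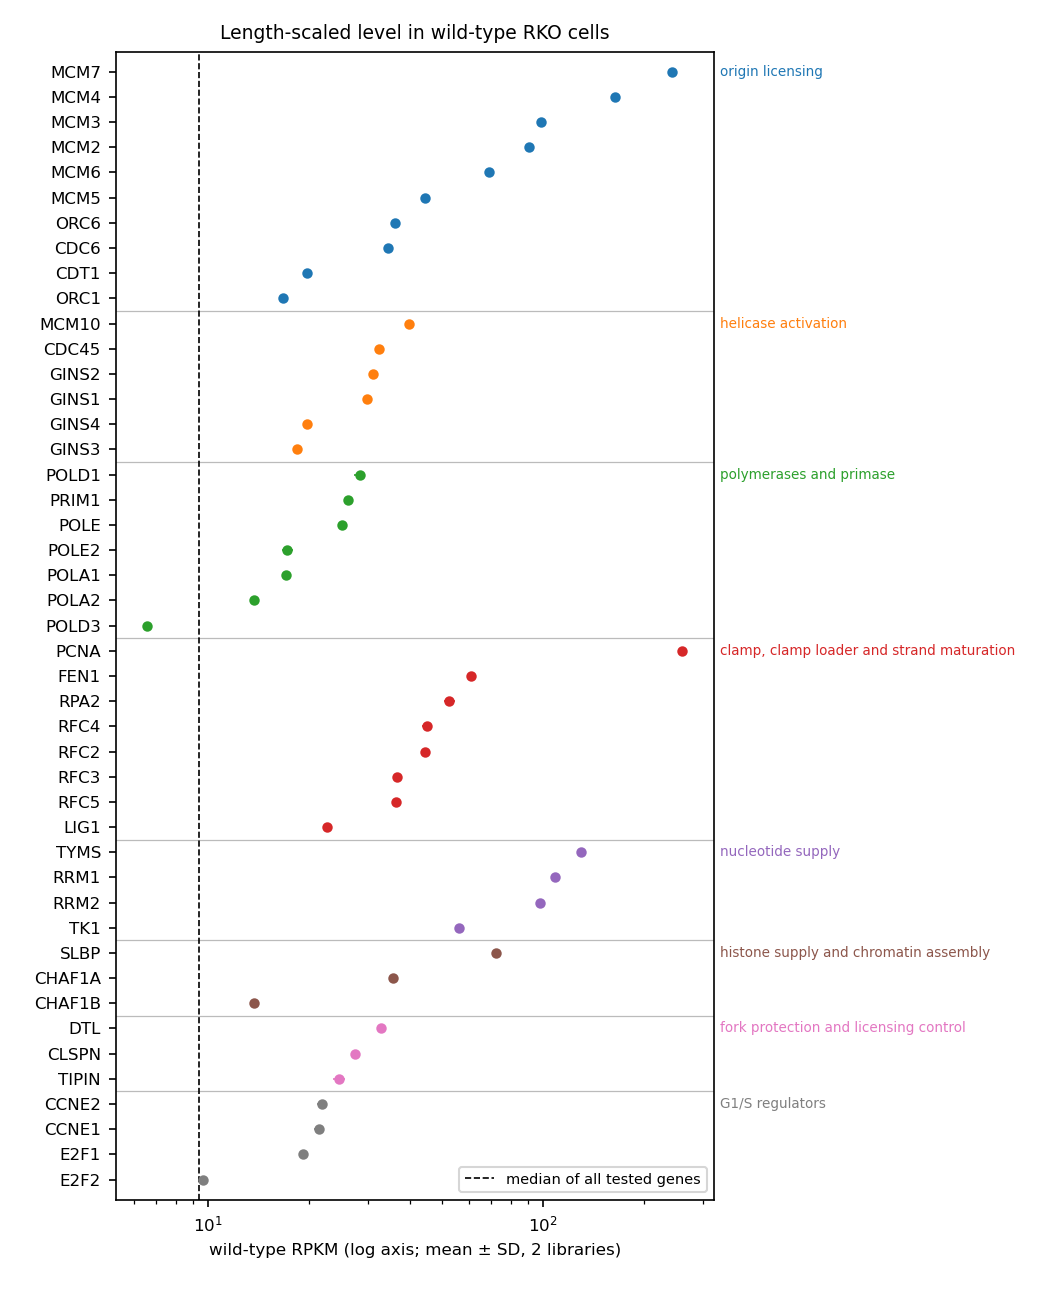
Wild-type level of each member in RPKM on a log axis, as the mean of 2 libraries with the SD, ordered by level within each role, with the median of all tested genes as a dashed line. PCNA (260 RPKM) and MCM7 (243 RPKM) lie at the top, and POLD3 (6.56 RPKM) is left of the dashed line.

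Across the 6 groups the members moved little. The ratio of the highest to the lowest group mean was under 1.5 for 41 of 45 members, with a median of 1.18. It reached 1.61 for E2F2, 1.56 for CDT1, 1.55 for RRM2 and 1.53 for TYMS, and it was smallest for TIPIN, a fork protection factor, at 1.04. Replicate libraries were close, with a biological coefficient of variation of 2.18% over tested genes, so that shifts of a few percent passed the test. A call below means a Benjamini-Hochberg adjusted p under 0.05 over all 12858 genes in edgeR's quasi-likelihood test. When the same fit was asked for changes larger than 1.5-fold, 0 of 45 members passed in any of the 8 comparisons. Of all tested genes, 2.80% (alpha against GFP), 2.75% (beta against GFP), 0.459% (alpha against beta), 1.37% (KO2 against wild type), 2.18% (KO5 against wild type), 3.43% (KO5 against KO2), 4.97% (overexpression against knockout) and 0% (GFP against wild type) passed. The number of members at an unadjusted p under 0.05 in that test was 1 (lower, KO5 against KO2) over all 8.

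With PRDM1-alpha, 8 of 45 members were higher and 15 lower than with GFP, and 37.5% of all tested genes were called in this comparison (21.2% higher and 16.3% lower). With PRDM1-beta, 6 members were higher and 14 lower, beside 40.9% of all tested genes (22.9% higher and 18.0% lower). Both comparisons use the same GFP libraries. With alpha the count of 23 went to 14 without GFP replicate 2 (3 higher and 11 lower) and to 15 without alpha replicate 2 (4 higher and 11 lower). The largest decreases were in thymidylate synthase, E2F2 and primase, and the largest increase in the small ribonucleotide reductase subunit, followed by cyclin E1 with alpha and by CDT1 with beta. The median member changed by -0.049 with alpha and -0.032 with beta on the log2 scale, beside 0.011 and 0.012 for all tested genes. A smaller share of cells in late G1 and S phase and less message in each such cell cannot be told apart in bulk RNA.

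**Figure D2:**
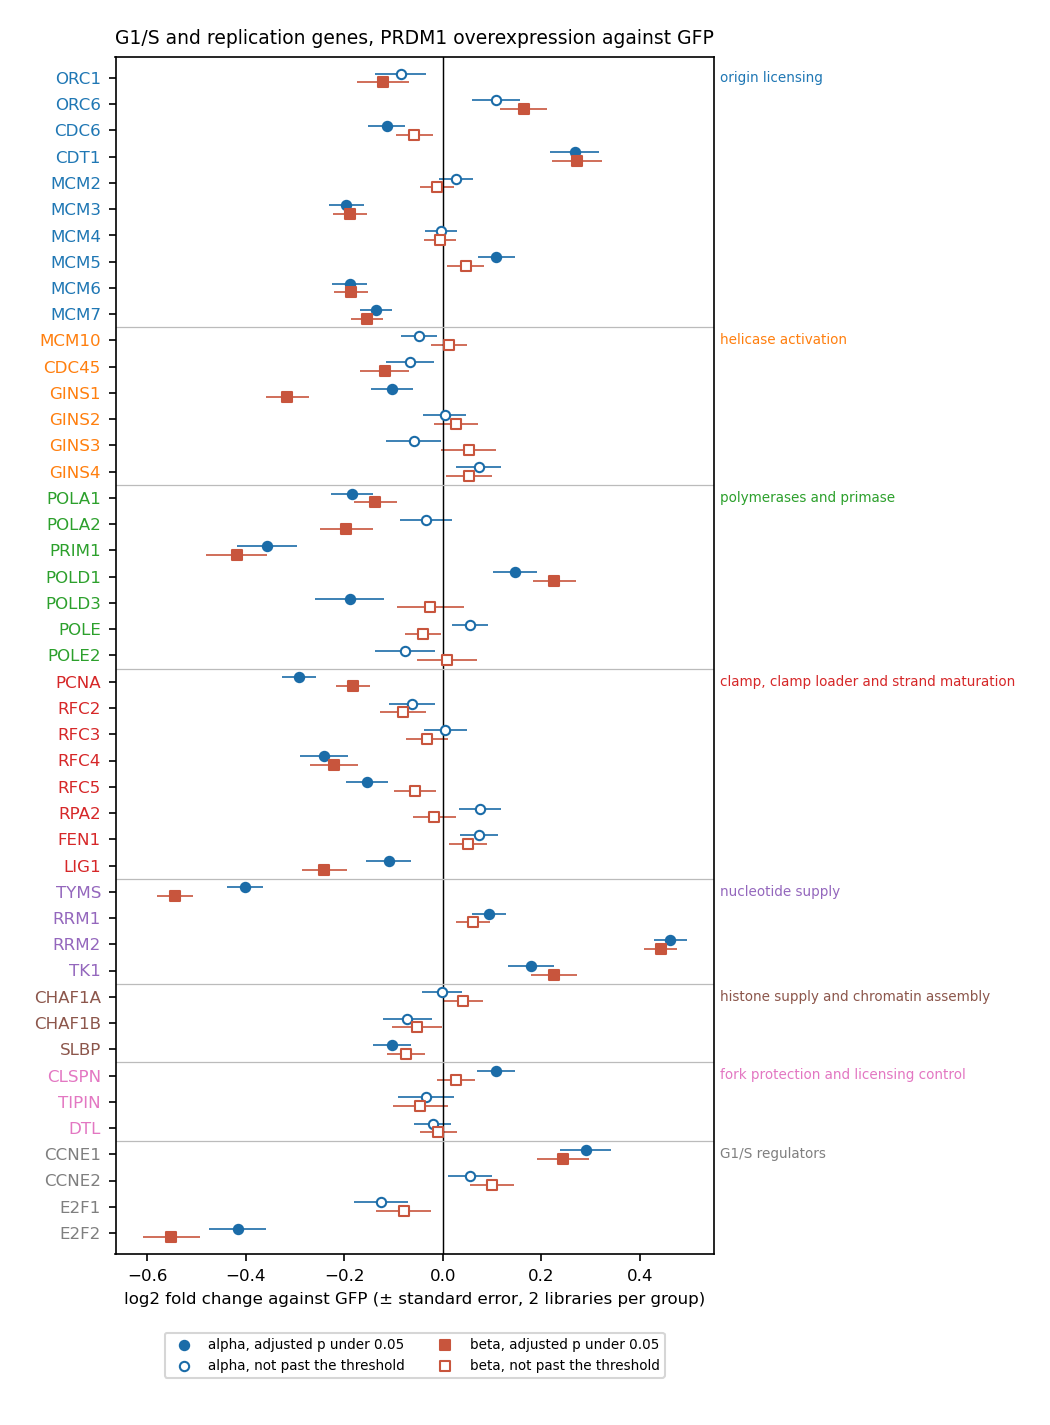
Log2 fold change of each member against GFP with PRDM1-alpha (circles) and PRDM1-beta (squares), with the standard error, grouped by role. Filled symbols have an edgeR adjusted p under 0.05. RRM2 is farthest right (0.46 and 0.44), and TYMS and E2F2 are farthest left.

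The enzymes that supply nucleotides moved in opposite directions: of 4, 3 were higher and 1 lower with alpha, and 2 higher and 1 lower with beta. TYMS stood at 221 and 225 CPM in the GFP libraries, at 169 in both alpha libraries and at 153 in both beta libraries. The 3 groups did not overlap, and the log2 fold change was -0.40 ± 0.04 (SE) with alpha (edgeR adjusted p = 5.81e-15) and -0.54 ± 0.04 with beta (edgeR adjusted p = 1.76e-19). RRM2 stood at 386.5 and 373 CPM in the GFP libraries, at 519 and 527 in the alpha libraries and at 533 and 501 in the beta libraries. All 4 PRDM1 libraries lay above both GFP libraries, by 0.46 ± 0.03 with alpha (edgeR adjusted p = 6.50e-17) and 0.44 ± 0.03 with beta (edgeR adjusted p = 3.31e-16). Its partner subunit RRM1 was at 353 and 345 CPM in the GFP libraries, at 369.8 and 376 in the alpha libraries and at 366 and 362 in the beta libraries. RRM1 was thus higher with alpha by 0.094 ± 0.034, a call that ended without GFP replicate 2 (0.066) or alpha replicate 2 (0.084), and its value of 0.061 ± 0.034 with beta did not pass as fitted but did with the trend along GC content, described below, removed (0.069). TYMS overlaps ENOSF1 on the opposite strand by 967 exonic bases, and whether the authors' counting used the strand is not given in the sources used here, so that the TYMS counts are uncertain to that extent.

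Among the G1/S regulators, E2F2, an activating E2F factor, was at 46.2 and 46.0 CPM in the GFP libraries, 34.9 and 34.1 in the alpha libraries, and 30.7 and 32.1 in the beta libraries. It was lower by 0.42 ± 0.06 with alpha (edgeR adjusted p = 6.75e-09) and by 0.55 ± 0.06 with beta (edgeR adjusted p = 5.15e-12), with no overlap between the PRDM1 and GFP libraries. CCNE1, cyclin E1, was at 46.0 and 46.5 CPM in the GFP libraries, 54.3 and 59.0 in the alpha libraries, and 56.6 and 53.2 in the beta libraries. Its increase was 0.29 ± 0.05 with alpha and 0.24 ± 0.05 with beta, both past the threshold. CCNE2, cyclin E2, had values of 0.055 ± 0.045 with alpha and 0.10 ± 0.04 with beta that did not pass as fitted, and the latter passed as higher after removal of the trend along GC content described below (0.13). E2F1 had values of -0.13 ± 0.06 with alpha and -0.080 ± 0.055 with beta that did not pass either, although both passed as lower once that trend was removed (-0.23 and -0.18). The message of one activating E2F gene thus fell with both forms while that of cyclin E1 rose.

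In the helicase loading and activation machinery, decreases were small and uneven. Of 10 licensing genes, 2 were higher and 4 lower with each form, and of 6 helicase activation genes 1 was lower with alpha and 2 with beta. MCM6 was at 270.7 and 270.4 CPM in the GFP libraries, 238 and 237 in the alpha libraries, and 242 and 233 in the beta libraries. MCM3, MCM6 and MCM7, subunits of the loaded ring, were lower by 0.20, 0.19 and 0.14 with alpha and by 0.19, 0.19 and 0.15 with beta, and all 6 values passed. MCM2 (0.027 ± 0.035 with alpha and -0.011 ± 0.035 with beta) and MCM4 (-0.0032 ± 0.0326 and -0.0049 ± 0.0326), subunits of the same ring, did not pass. MCM5, the other subunit, was higher with alpha (0.11 ± 0.04), a call that ended with the GC trend removed (0.070) and without GFP replicate 2 or alpha replicate 2, and its value of 0.046 ± 0.039 with beta did not pass. CDC6, a helicase loader, was lower with alpha (-0.11 ± 0.04), a call that ended without GFP replicate 2 or alpha replicate 2, and had a value of -0.058 ± 0.037 with beta that did not pass. GINS1, part of the active helicase, was at 101 and 97.5 CPM in the GFP libraries, 91.6 and 93.2 in the alpha libraries, and 81.6 and 78.0 in the beta libraries. Its decrease was 0.32 ± 0.04 with beta and 0.10 ± 0.04 with alpha, and the latter ended when any of GFP replicate 1, alpha replicate 1 or alpha replicate 2 was left out.

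At the fork, PRIM1, the catalytic subunit of primase, was at 38.1 and 37.8 CPM in the GFP libraries, 29.02 and 30.3 in the alpha libraries, and 27.8 and 28.9 in the beta libraries. It was lower by 0.36 ± 0.06 and 0.42 ± 0.06, with adjusted p-values of 3.65e-06 and 1.70e-07 in edgeR. PCNA was at 364 and 372 CPM in the GFP libraries, 297 and 304 in the alpha libraries, and 329 and 319 in the beta libraries, a decrease of 0.29 ± 0.03 with alpha and 0.18 ± 0.03 with beta. The clamp loader subunit RFC4 was lower by 0.24 ± 0.05 and 0.22 ± 0.05, and the catalytic subunit of polymerase alpha, POLA1, by 0.18 ± 0.04 and 0.14 ± 0.04. LIG1, which seals Okazaki fragments, was lower by 0.24 ± 0.05 with beta and by 0.11 ± 0.05 with alpha, where leaving out 1 of GFP replicate 1, GFP replicate 2 or alpha replicate 1 ended the call. Of the 8 clamp, clamp loader and strand maturation genes, 4 were lower with alpha and 3 with beta, and of the 7 polymerase and primase genes 1 was higher and 3 lower with each form.

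A further set of increases became smaller once the GC trend was removed. CDT1, the licensing factor that recruits the helicase, was at 52.0 and 50.5 CPM in the GFP libraries, 59.9 and 63.7 in the alpha libraries, and 61.9 and 61.9 in the beta libraries. Its log2 fold change of 0.27 ± 0.05 with each form became 0.13 with alpha (edgeR adjusted p = 0.0333) and 0.11 with beta (edgeR adjusted p = 0.0535) after removal of the GC trend. POLD1, the catalytic subunit of polymerase delta, went from 0.15 and 0.23 to 0.0053 and 0.067, neither past the threshold, and TK1, thymidine kinase, from 0.18 and 0.23 to 0.071 (not past the threshold) and 0.12. The wild-type mean of CDT1 was 63.8 CPM, so CDT1 with either form was above GFP but not above wild type. POLD1 had a mean of 99.7 CPM in wild type, 80.1 with GFP, 88.6 with alpha and 93.6 with beta. TK1 had a mean of 94.4 CPM in wild type, 85.2 with GFP, 96.5 with alpha and 99.5 with beta. The CDT1, POLD1 and TK1 transcripts are among the most GC-rich of the list, at 64.9%, 65.0% and 62.8%. The median of the members was 48.5%. After removal, 5 members were higher and 16 lower with alpha (37.0% of all tested genes called, 17.4% higher and 19.7% lower) and 6 higher and 13 lower with beta (40.6%, with 21.9% higher and 18.8% lower). RRM2 (0.45 and 0.45), CCNE1 (0.27 and 0.26), TYMS (-0.41 and -0.53), E2F2 (-0.46 and -0.56), PRIM1 (-0.36 and -0.40) and PCNA (-0.30 and -0.18) kept their calls.

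Of the 16 members with E2F-type letters before the start, 1 was higher and 8 lower with alpha, and 1 higher and 9 lower with beta. Of the 23 with a window but no such letters, 6 were higher and 6 lower with alpha, and 5 higher and 5 lower with beta. In KO2 against wild type 7 were higher and 0 lower with the letters, and 7 higher and 0 lower without them. In KO5 against wild type 2 were higher and 8 lower with the letters, and 3 higher and 13 lower without them. Of all tested genes, 21.2% were called higher and 16.3% lower with alpha, and 22.9% and 18.0% with beta. In KO2 these shares were 15.1% and 14.9%, and in KO5 25.2% and 25.9%. All these calls are as fitted, and the counts were not repeated with the GC trend removed. After that removal TK1, without the letters, lost its call with alpha (0.071). CDT1, with the letters, lost its call with beta (0.11). E2F1, with the letters, was then called lower with both forms (-0.23 and -0.18). These counts describe a small list, and no difference between genes with and without the letters was tested.

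The 2 PRDM1 forms differed from each other in few members. Against beta, 3 of 45 members were higher and 1 lower with alpha, beside 6.24% of all tested genes (3.45% higher and 2.79% lower). GINS1 was higher with alpha by 0.21 ± 0.05 (edgeR adjusted p = 0.000435) and TYMS by 0.14 ± 0.04 (edgeR adjusted p = 0.0036), so that both were nearer to their GFP level with alpha. PCNA was lower with alpha by 0.11 ± 0.04 (edgeR adjusted p = 0.0248). POLA2, the accessory subunit of polymerase alpha, was at 50.1 and 47.5 CPM with alpha and 43.9 and 43.5 with beta, a difference of 0.16 ± 0.06 that no longer passed after removal of the GC trend (0.13). The POLA2 and PCNA calls ended without any 1 of the 4 libraries and that of GINS1 without beta replicate 2. The count of 4 went to 2 without alpha replicate 2, 2 without beta replicate 1 and 1 without beta replicate 2. DESeq2's Wald test called 2 members, beside 3.58% of the 12359 genes that it gave an adjusted p. For RRM2 the difference was 0.019 ± 0.033, for E2F2 0.13 ± 0.06, for CCNE1 0.046 ± 0.053, for CCNE2 -0.045 ± 0.046, for E2F1 -0.046 ± 0.058, for CDT1 -0.0049 ± 0.0505, for MCM2 0.038 ± 0.035 and for CDC6 -0.057 ± 0.038, none past the threshold.

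**Figure D3:**
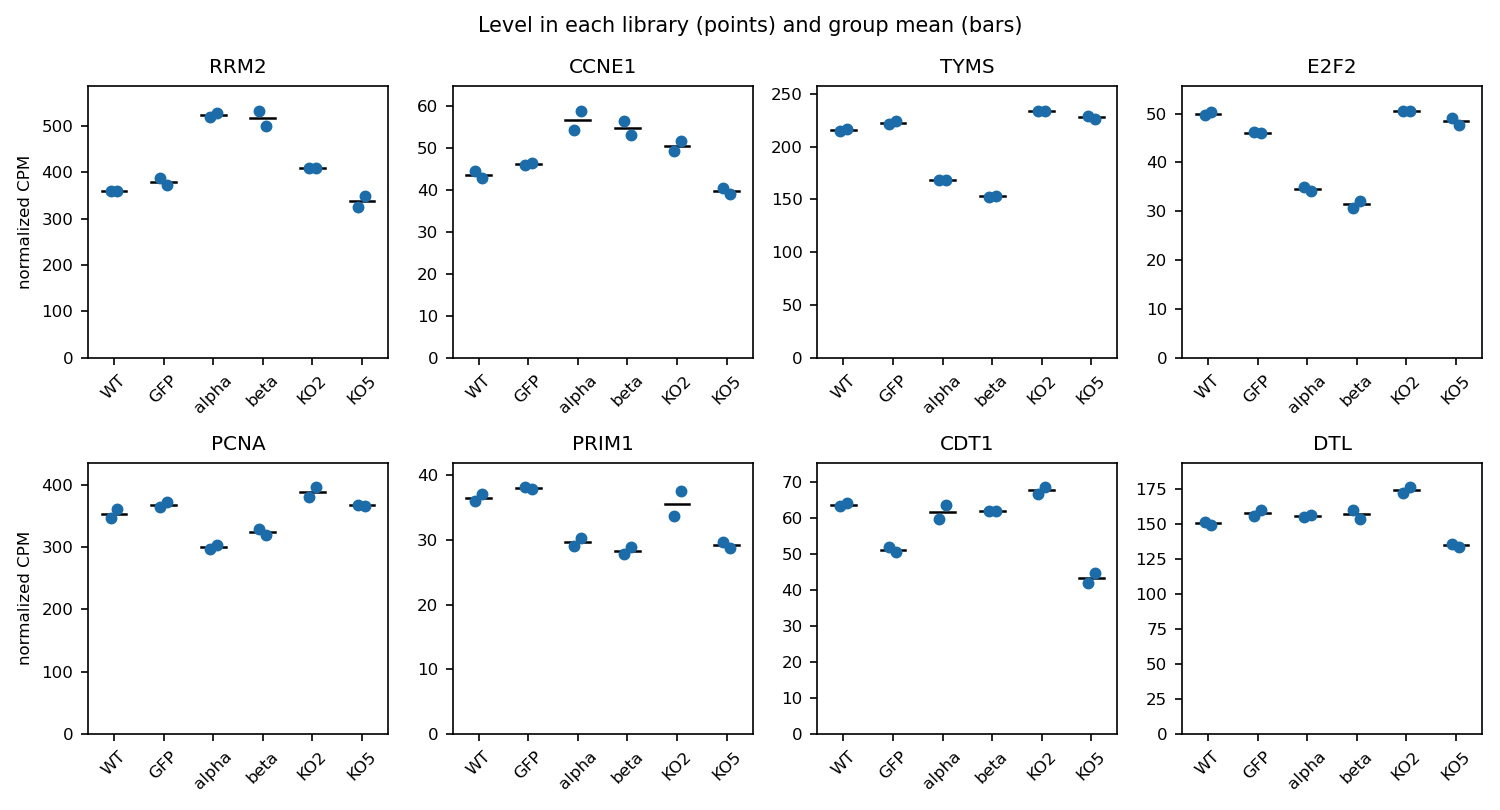
CPM of 8 members in each of the 12 libraries (points) with the group mean (bars), on axes that start at 0. TYMS, E2F2 and PCNA are lowest in the alpha and beta libraries, RRM2 is highest there, and DTL and CDT1 are lowest in KO5.

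The lines labelled KO2 and KO5 are described one by one, because the direct test between them, given below, called most members. In KO2, 14 of 45 members were higher than in wild type, beside 15.1% of all tested genes called higher and 30.0% called in either direction. The number called lower was 0 by edgeR and by DESeq2. Of all tested genes edgeR called 14.9% lower, and DESeq2 called 8.62% lower of the 12359 genes that it gave an adjusted p. In edgeR 2 members (POLD1 and POLE) were lower at an unadjusted p under 0.05. In KO5, 5 members were higher and 23 lower, beside 51.2% of all tested genes called (25.2% higher and 25.9% lower). Both comparisons use the same wild-type libraries. The median member changed by 0.029 in KO2 and by -0.080 in KO5, beside -0.0014 and -0.0043 for all tested genes.

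**Figure D4:**
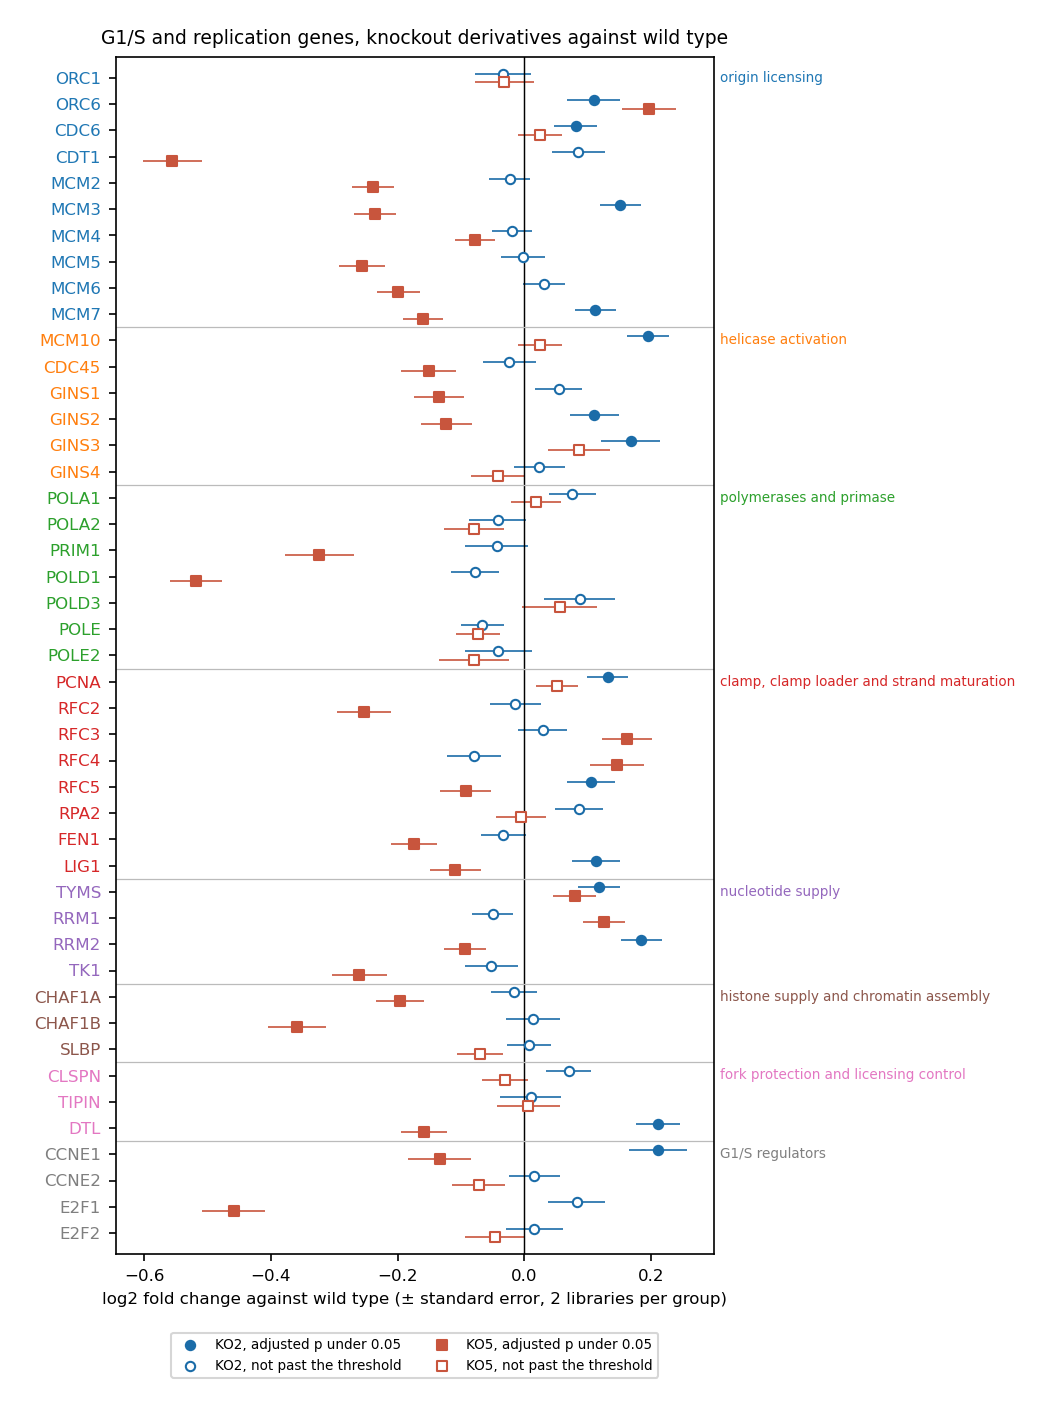
Log2 fold change of each member against wild type in KO2 (circles) and KO5 (squares), with the standard error, grouped by role. Filled symbols have an edgeR adjusted p under 0.05. The KO2 calls all lie right of 0, and CDT1, POLD1 and E2F1 lie farthest left in KO5.

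The increases in KO2 were small. They covered 4 of 10 licensing genes, 3 of 6 helicase activation genes and 3 of 8 clamp, clamp loader and strand maturation genes. Also higher were 2 of 4 nucleotide supply genes, 1 of 4 G1/S regulators and 1 of 3 fork protection and licensing control genes. DTL, which directs CDT1 to degradation during S phase, was at 151 and 149 CPM in wild type and 172 and 176 in KO2, higher by 0.21 ± 0.03 (edgeR adjusted p = 4.64e-07). CCNE1 was at 44.7 and 42.8 CPM in wild type and 49.4 and 51.7 in KO2, higher by 0.21 ± 0.05 (edgeR adjusted p = 0.000256). MCM10, a helicase activation factor, was at 184 and 182 CPM in wild type and 209.5 and 209.6 in KO2, an increase of 0.20 ± 0.03. In each of these genes both KO2 libraries lay above both wild-type libraries. RRM2 (0.18 ± 0.03), GINS3 (0.17 ± 0.05), MCM3 (0.15 ± 0.03), PCNA (0.13 ± 0.03) and TYMS (0.12 ± 0.03) were also higher. CDC6 was higher by 0.081 ± 0.034, a call that ended when any 1 of the 4 libraries was left out. MCM2 (-0.023 ± 0.033), CDT1 (0.086 ± 0.042), CCNE2 (0.016 ± 0.040), E2F1 (0.083 ± 0.045) and E2F2 (0.016 ± 0.045) did not pass as fitted. Of these, CDT1 (0.17) and E2F1 (0.15) passed as higher with the GC trend removed. After removal of the GC trend, 21 members were higher and 0 lower (37.8% of all genes called, 26.4% higher and 11.4% lower), with 0 members lower at an unadjusted p under 0.05, and that removal also moved the median of all genes from -0.0014 to 0.040.

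In KO5 the decreases were led by CDT1, POLD1 and E2F1, and 7 of 10 licensing genes, 3 of 6 helicase activation genes and 4 of 8 clamp, clamp loader and strand maturation genes were lower. CDT1 was at 63.4 and 64.2 CPM in wild type and 42.1 and 44.8 in KO5, lower by 0.56 ± 0.05 (edgeR adjusted p = 9.92e-15). POLD1 was at 97.0 and 102 CPM in wild type and 71.9 and 67.6 in KO5, lower by 0.52 ± 0.04 (edgeR adjusted p = 1.04e-14). E2F1 was at 47.8 and 48.2 CPM in wild type and 36.2 and 33.6 in KO5, lower by 0.46 ± 0.05 (edgeR adjusted p = 3.64e-11). In these 3 genes the groups were far apart, but fold changes in this comparison ran along GC content. Across the 12132 tested genes with a known GC content, Spearman's correlation between GC content and log2 fold change was -0.519, and over the 45 members it was -0.549. Genes are not independent replicates, and the correlation is a description of these 4 libraries. With the trend removed, CDT1 was lower by 0.25, POLD1 by 0.21 and E2F1 by 0.21, each still past the threshold, and TK1 went from -0.26 ± 0.04 to -0.0019, no longer past it.

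**Figure D5:**
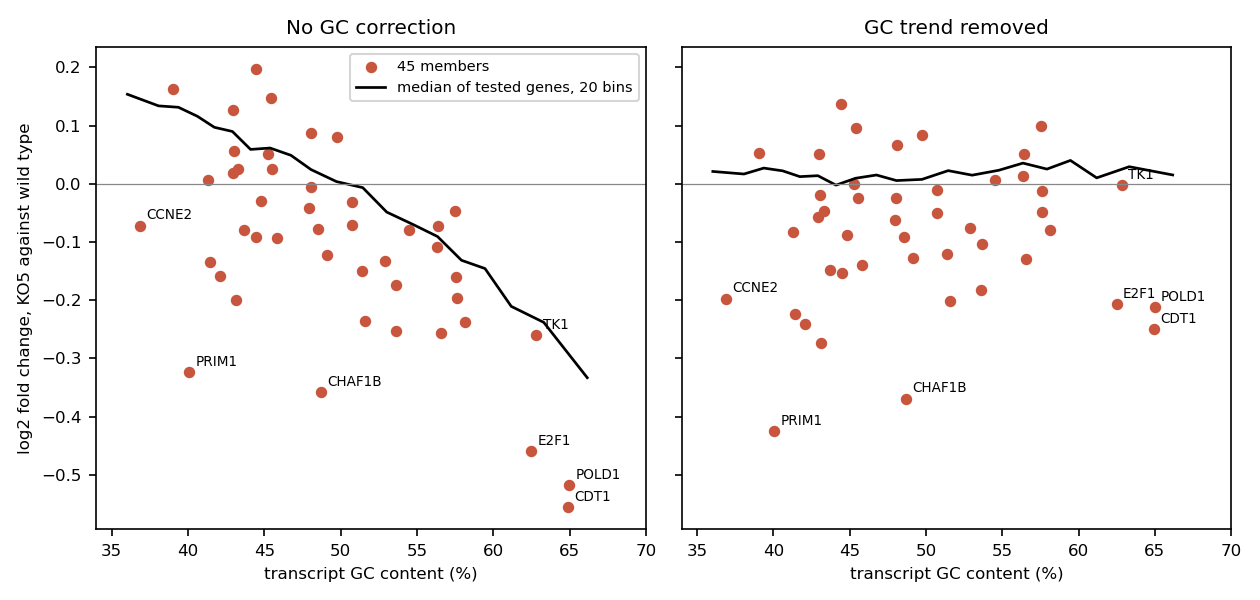
Log2 fold change of the 45 members in KO5 against wild type over the GC content of their transcript, as fitted (left) and with the GC trend removed (right), with the median of tested genes in 20 bins of GC content as a line. On the left CDT1, POLD1 and E2F1 lie at the GC-rich end below the falling line, and on the right PRIM1 and CHAF1B are lowest.

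The decreases of CHAF1B and PRIM1 in KO5 were at least as large with the GC trend removed. CHAF1B, a subunit of the histone chaperone that loads histones behind the fork, was at 61.7 and 61.1 CPM in wild type and 48.7 and 47.0 in KO5. Its decrease was 0.36 ± 0.05 (edgeR adjusted p = 2.03e-09) and 0.37 with the GC trend removed. PRIM1 was at 36.0 and 37.0 CPM in wild type and 29.6 and 28.8 in KO5, lower by 0.32 ± 0.05 and, with the trend removed, by 0.42. All KO5 libraries lay below all wild-type libraries for both genes. All 6 MCM2-7 subunits were lower as fitted, from -0.078 ± 0.032 (MCM4) to -0.26 ± 0.04 (MCM5), with MCM2 at -0.24 ± 0.03, and the MCM4 call ended without WT replicate 1, KO5 replicate 1 or KO5 replicate 2. After removal MCM3 (-0.20) and MCM6 (-0.27) stayed in the same range, MCM2 was at -0.080 and MCM7 at -0.0125, the last no longer past the threshold. RRM2 (-0.093 ± 0.033) and CCNE1 (-0.13 ± 0.05) were lower, and after removal RRM2 passed at -0.14 while CCNE1 did not at -0.076. TYMS was higher by 0.080 ± 0.034. The calls of these 3 were not stable to single libraries: that of RRM2 ended without KO5 replicate 1 (-0.044), that of CCNE1 without WT replicate 1 or KO5 replicate 2, and that of TYMS without WT replicate 1, WT replicate 2 or KO5 replicate 1. PCNA (0.052 ± 0.033), CDC6 (0.025 ± 0.035), CCNE2 (-0.072 ± 0.042) and E2F2 (-0.047 ± 0.047) did not pass. Of these, CCNE2 passed as lower after removal (-0.20) and E2F2 as higher (0.10, edgeR adjusted p = 0.0479). The E2F2 call ended when a replicate block was added to the removal, as did that of RFC4, which left 2 members higher and 21 lower. RFC3 and RFC4 of the clamp loader and ORC6 of the origin recognition complex were higher by 0.16 ± 0.04, 0.15 ± 0.04 and 0.20 ± 0.04, and RFC3 no longer passed after removal (0.054). With the trend removed, 4 members were higher and 21 lower, beside 40.9% of all genes called (23.3% higher and 17.6% lower).

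The direct test of KO5 against KO2, which uses no wild-type library, called 3 members higher and 27 lower, beside 54.9% of all tested genes (26.9% higher and 28.1% lower). After removal of the GC trend 2 members were higher and 34 lower, beside 50.8% of all genes (21.7% higher and 29.1% lower). CDT1 was lower in KO5 by 0.64 ± 0.05 and E2F1 by 0.54 ± 0.05, and both stayed past the threshold after removal (-0.42 and -0.36). POLD1 (-0.44 ± 0.04), MCM3 (-0.39 ± 0.03), CHAF1B (-0.37 ± 0.05) and DTL (-0.37 ± 0.04) followed. CCNE1 (-0.34 ± 0.05), RRM2 (-0.28 ± 0.03), MCM2 (-0.22 ± 0.03) and PCNA (-0.080 ± 0.033) were also lower, and the PCNA call ended without KO2 replicate 2, KO5 replicate 1 or KO5 replicate 2. CDC6 (-0.057 ± 0.035), CCNE2 (-0.088 ± 0.043), E2F2 (-0.063 ± 0.048) and TYMS (-0.038 ± 0.034) did not pass as fitted, and CDC6 (-0.14) and CCNE2 (-0.26) did after removal. The median member differed by -0.13, beside -0.0058 for all genes tested. The lines labelled as knockouts of the same gene differed in 30 of 45 members (66.7%, beside 54.9% of all tested genes). Of these members 27 were lower in KO5.

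GFP against wild type, where PRDM1 is not overexpressed or knocked out in either group, called 3 members higher and 7 lower, beside 19.0% of all tested genes (8.81% higher and 10.2% lower). POLD1 was at 83.3 and 76.8 CPM with GFP and 97.0 and 102 in wild type, lower by 0.32 ± 0.04 (edgeR adjusted p = 5.74e-07). CDT1 was lower by 0.32 ± 0.05 and MCM2 by 0.16 ± 0.03, and LIG1 (-0.17 ± 0.04), MCM5 (-0.16 ± 0.04) and TK1 (-0.15 ± 0.04) were lower as well, while CCNE2 was higher by 0.13 ± 0.04. PCNA (0.056 ± 0.033), CDC6 (0.062 ± 0.035), CCNE1 (0.084 ± 0.049), E2F1 (-0.11 ± 0.05), E2F2 (-0.12 ± 0.05), RRM2 (0.079 ± 0.033) and TYMS (0.049 ± 0.034) did not pass. Fold changes followed GC content here too, with a Spearman's correlation of -0.667 over all genes and -0.767 over the members. With it removed edgeR called 0 members, and 4 were higher and 5 lower at an unadjusted p under 0.05. Of all genes, 1.05% were still called (0.622% higher and 0.428% lower). Without that removal DESeq2's Wald test called 6 members and 17.1% of the 8620 genes that it gave an adjusted p. The edgeR count of members fell without WT replicate 2 and without GFP replicate 2.

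When alpha and beta were averaged and set against the average of KO2 and KO5, 12 members were higher and 15 lower, beside 58.8% of all tested genes (31.0% higher and 27.7% lower). After removal of the GC trend these were 8 and 20, beside 59.8% (25.6% higher and 34.2% lower). E2F2 (-0.59 ± 0.04), TYMS (-0.52 ± 0.03) and LIG1 (-0.35 ± 0.03) had the largest decreases with overexpression, and RRM2 (0.49 ± 0.02), CCNE1 (0.31 ± 0.04), CCNE2 (0.24 ± 0.03) and CDT1 (0.19 ± 0.03) were higher, CDT1 no longer past the threshold after removal (0.031). PCNA (-0.27 ± 0.02) and CDC6 (-0.077 ± 0.026) were lower, CDC6 not without beta replicate 2 (-0.058), and MCM2 (-0.026 ± 0.024) and E2F1 (-0.022 ± 0.039) did not pass as fitted but passed as lower after removal (-0.066 and -0.13). The knockout average joins lines that differ from each other, as given above for CCNE1 and CDT1. In the authors' deposited table of alpha against knockout, 2 members were higher and 6 lower at an adjusted p under 0.05, beside 16.4% of 12461 genes (9.02% higher and 7.42% lower). In the authors' deposited table of beta against knockout, 2 were higher and 4 lower, beside 19.5% of 12447 genes (10.6% higher and 8.89% lower). The authors' deposited tables gave RRM2 at 0.45 ± 0.10 and 0.43 ± 0.10, TYMS at -0.45 ± 0.05 and -0.59 ± 0.05, and E2F2 at -0.51 ± 0.07 and -0.64 ± 0.08, for alpha and beta in that order (log2, with the tables' standard errors).

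A further 68 genes of the same pathway that are not among the 45, all of which passed the filter, were counted in the same way. With alpha 9 were higher and 15 lower (35.3% called, beside 37.5% of all tested genes). With beta 15 were higher and 18 lower (48.5%, beside 40.9%). DUT, which removes dUTP and so feeds thymidylate synthesis, was at 75.9 and 74.0 CPM in the GFP libraries, 52.1 and 55.1 in the alpha libraries, and 50.9 and 51.8 in the beta libraries. It was lower by 0.48 ± 0.05 and 0.54 ± 0.05, a decrease in size near that of TYMS. RPA3, the smallest subunit of the single-strand binding complex, was lower than with GFP by 0.33 ± 0.09 and 0.49 ± 0.09. Both DUT and RPA3 were higher with GFP than in wild type, by 0.19 ± 0.04 and 0.25 ± 0.07. With the GC trend removed DUT still passed there (0.15) and RPA3 did not (0.22). Wild-type libraries held DUT at 63.7 and 67.1 CPM and RPA3 at 16.0 and 14.8. RPA3 was at 13.5 and 15.5 CPM with alpha and 12.2 and 13.5 with beta. E2F7, a repressive E2F factor, was higher by 0.41 ± 0.04 and 0.37 ± 0.04 against GFP. In KO5 it was also higher than in wild type, by 0.45 ± 0.04 as fitted and 0.37 with the GC trend removed. E2F8 was lower by 0.34 ± 0.06 with beta and E2F5 by 0.45 ± 0.10 with alpha. Each is named for 1 form because only the 3 largest changes in each direction were named. E2F8 was at 27.24 and 28.85 CPM with alpha, also below its GFP libraries (34.12 and 34.45). E2F5 was at 11.63 and 9.69 CPM with beta, also below its GFP libraries (12.42 and 14.03). In KO2, 16 of the 68 were higher and 8 lower (35.3% called, beside 30.0% of all tested genes). Among them were TICRR, a helicase activation factor, at 0.28 ± 0.04 and TOPBP1, which works at the same step, at -0.59 ± 0.035. In KO5, 24 were higher and 13 lower (54.4%, beside 51.2% of all tested genes). After removal of the GC trend these were 14 and 21 (51.5%, beside 40.9%), with 30 and 8 in KO2 (55.9%, beside 37.8%). In KO5 as fitted RRM2B, the p53-inducible small reductase subunit, was higher by 0.87 ± 0.04, and TOP2A, topoisomerase II alpha, was lower by 0.37 ± 0.03. Of 26 G2/M genes, 1 was higher and 14 lower with alpha (57.7% called, beside 37.5% of all tested genes). With beta 13 were lower, while 40.9% of all tested genes were called in either direction. In KO2, 12 were higher and 2 lower (53.8%, beside 30.0%). In KO5, 6 were higher and 5 lower (42.3%, beside 51.2%), a smaller share than among all tested genes. After removal of the GC trend the G2/M counts were 21 and 1 in KO2 (84.6%, beside 37.8%) and 3 and 9 in KO5 (46.2%, beside 40.9%). Of all tested genes in KO2, 26.4% were then called higher and 11.4% lower, with a median of 0.04.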

How the data were processed

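The authors' deposited gene-level read counts of the 12 libraries were used as raw counts; the build hg19 and the tools Cufflinks, Bowtie2 and TopHat were used per the submitters' processing notes, and the counter and its strand setting are not given in the sources used here. The rows no_feature (9.13% to 10.8% of each library) and ambiguous (1.66% to 1.75%) were left out. Counts were tested with edgeR 4.0.16 (R 4.3.3): filterByExpr, TMM scaling, robust quasi-likelihood fit of all 12 libraries with a mean per group, and Benjamini-Hochberg adjustment over 12858 genes. Standard errors come from the fitted model. The authors' deposited tables give log2 fold changes with standard errors and adjusted p-values of alpha and beta against knockout and were copied, not recomputed. GC content and length came from the longest protein-coding transcript per gene (GENCODE, GRCh38), known for 94.4% of tested genes and all 45 members, and the GC trend was removed per library with a spline of 4 degrees of freedom. This correction and the tests were checked on simulated data. Replicate libraries differed by more than sampling noise (chi-square per gene 1.65 to 2.71). The members, roles and other lists were chosen with earlier results of these data known. Values are given for MCM2, PCNA, CDC6, CDT1, CCNE1, CCNE2, E2F1, E2F2, RRM2 and TYMS in every comparison and for the 6 called members with the largest change in each, with further members by role; of the other pathway genes, names were taken from the 3 largest changes in each direction. Alternatives were DESeq2 1.42.0 size factors and Wald test, no filter, only the groups compared, a replicate block, GC removal, a 1.5-fold test and leaving out each library. Promoters were from RefSeq (GRCh38.p14). An overlap with another gene leaves CCNE2, MCM7, FEN1, PRIM1 and TYMS counts uncertain where strand was not used.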

Additional observations from a re-analysis of the deposited data

Results flagged for a closer look

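For some members called higher in KO2 and lower in KO5 against the same wild-type libraries, the direct edgeR test of KO5 against KO2 also passed, as it did for 54.9% of all tested genes. How many of all tested genes show such opposite calls was not counted, so that nothing particular to the members follows. The log2 difference, KO5 minus KO2, was -0.3874 for MCM3, -0.2722 for MCM7, -0.2336 for GINS2, -0.1973 for RFC5, -0.2224 for LIG1, -0.2782 for RRM2, -0.3694 for DTL and -0.3446 for CCNE1. GC content moved with this comparison (Spearman's correlation over all genes -0.417). With the GC trend removed all 8 differences still passed, at -0.38, -0.16, -0.27, -0.30, -0.14, -0.36, -0.49 and -0.32 in the same order. LIG1 alone among these 8 then turned above wild type in KO5, at 0.0133, which did not pass. MCM7 (-0.0125) and CCNE1 (-0.076) stayed below wild type in KO5 but were no longer called lower. As given above, the fitted KO5 calls of RRM2 and CCNE1 against wild type were not stable to leaving out single libraries.

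In 4 members the effect differed between the PRDM1 forms in the direct edgeR test of alpha against beta. The log2 difference, alpha minus beta, was 0.2136 for GINS1, 0.1621 for POLA2, -0.11 for PCNA and 0.1421 for TYMS. PRDM1 message also differed between the forms, with 11475 and 9681 counts in the alpha libraries and 22395 and 28423 in the beta libraries, and its part in these differences was not tested. The POLA2 difference did not pass with the GC trend removed (0.13).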

How the results depend on the processing

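Leaving out each library in turn gave 14 to 20 members called for alpha against GFP (14 without GFP replicate 2 and 15 without alpha replicate 2, beside 23), 18 to 19 for beta against GFP, 1 to 3 for alpha against beta, 10 to 14 for KO2, 23 to 25 for KO5, 26 to 27 for KO5 against KO2, 24 to 26 for overexpression against knockout and 4 to 9 for GFP against wild type; the smaller number of libraries itself lowers these counts. DESeq2's Wald test called 2 members for alpha against beta and 6 for GFP against wild type. The test for changes beyond 1.5-fold called 0 members in all 8 comparisons. Removing the GC trend left 0 members for GFP against wild type, and with the replicate block 1 there and 22 in KO2. Among members called before or after it, that removal turned the direction of LIG1 in KO5 against wild type (0.0133, with the block 0.0145). It also turned E2F2 in KO5 against wild type (0.0998). In KO5 against KO2 it turned POLE (0.0819 and 0.0821) and RFC3 (-0.0217 and -0.0217). In GFP against wild type it turned TK1 (0.0066 and 0.004). Some values called neither before nor after also changed sign. The cause was not tested.

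Libraries of the same replicate number showed no shared deviation: over 15 pairs of groups the correlation of same-numbered deviations ran from -0.065 to 0.056. Whether such libraries were handled together is not in the labels, and these correlations cannot show it. With the replicate block the members called, higher and lower, were 8 and 15 for alpha, 6 and 14 for beta, 2 and 1 for alpha against beta, 13 and 0 for KO2, 5 and 23 for KO5, 3 and 27 for KO5 against KO2, 12 and 14 for overexpression against knockout, and 2 and 7 for GFP against wild type. DESeq2's size factors, the unfiltered fit and the fit of only the compared groups turned the sign of no member that was called either way, while some uncalled values near 0 did change sign.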

Other observations

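Of the named pathway genes outside the 45, RB1, the retinoblastoma protein that holds E2F factors inactive, was lower in KO2 than in wild type by 0.24 ± 0.04 and higher in KO5 than in KO2 by 0.52 ± 0.04 on the log2 scale (0.35 with the GC trend removed). RBL2, a relative of RB1, was lower in KO5 than in KO2 by 0.33 ± 0.05. HELLS, a chromatin remodeller, and RRM2B were lower with alpha than with beta by 0.22 ± 0.05 and 0.25 ± 0.04. All of these passed edgeR's test after adjustment over all genes.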
